A study of Mus musculus with 24 samples.

Results

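The genes described here are 10 interferon-induced genes of the mouse, 5 of the Schlafen family (Slfn1, Slfn2, Slfn4, Slfn5 and Slfn8) and 5 of the tripartite motif (TRIM) family (Trim30a, Trim30c, Trim30d, Trim21 and Trim25). They were chosen by name out of 52636 genes counted, with earlier results of these data known. All 10 were among the 14681 genes that passed the filter on low counts. RNA-seq had been run on bone marrow-derived macrophages, cells grown from mouse bone marrow in M-CSF, either untreated or after 8 h of R837 (imiquimod, an agonist of the receptor TLR7). Cells of 4 genotypes were used: TBK1-WT ∆control, in which both kinases are wild-type; TBK1-WT ∆IKKe, with a knockout of IKKe; TBK1-cKD ∆control, which the series calls a conditional knockout of TBK1; and TBK1-cKD ∆IKKe, which combines both. Each of the 8 groups held 3 libraries. The labels name 3 mice as the biological replicates and tie no library to a given mouse. All cells came from mice described as C57BL/6N and were grown in the same factor. The labels give neither the Cre driver nor the way IKKe was removed, and replicate numbers below only name the libraries.

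TBK1 and IKKe are related kinases that phosphorylate the transcription factor IRF3 and so lead to the production of type I interferon. Interferon acts through its receptor to raise the transcription of genes whose promoters hold the interferon-stimulated response element (ISRE). Schlafen proteins act on RNA and on cell growth: Slfn1 was named for its arrest of thymocyte growth, and Slfn2 is needed for the quiescence and survival of T cells and monocytes. TRIM proteins are mostly E3 ubiquitin ligases. Trim21 is the cytosolic antibody receptor, Trim25 acts with the RNA sensor RIG-I and the antiviral protein ZAP, and Trim30a has been described as a brake on Toll-like receptor signalling through its effect on TAB2 and TAB3.

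The libraries held 19.7 to 41.3 M counted reads, with a median of 31.4 M. Tbk1 RNA, in CPM (reads relative to the library total) scaled by TMM factors, lay between 100.4 and 104.1 in the untreated TBK1-WT ∆control libraries and between 73.4 and 76.3 in untreated TBK1-cKD ∆control, an adjusted p of 0.000674. Ikbke RNA, which encodes IKKe, lay between 59.0 and 59.9 CPM in untreated TBK1-WT ∆control and between 34.5 and 35.9 in TBK1-WT ∆IKKe. In the untreated libraries labelled TBK1-cKD ∆IKKe it lay between 76.9 and 81.3 CPM, above every TBK1-cKD ∆control library (71.5 to 76.1), so the Ikbke RNA did not show the knockout that the label names. After R837 their replicates 1 and 2 had 77.7 and 82.7 CPM, near the 70.5 to 79.3 CPM of TBK1-WT ∆IKKe. Their replicate 3 had 259 CPM, above the 239 to 248 CPM of TBK1-cKD ∆control and within the 220.1 to 405.7 CPM of TBK1-WT ∆control. Tbk1 RNA of the untreated labelled libraries, at 87.85 to 90.7 CPM, lay between TBK1-cKD ∆control and TBK1-WT ∆control and overlapped with neither. Its difference from the latter was not called by edgeR over all 24 libraries (adjusted p = 0.0925). When only these 6 libraries were fitted, it was called lower (log2 difference -0.21 ± 0.03, adjusted p = 4.88e-05). After R837 Tbk1 RNA of the labelled libraries lay between 115.3 and 136.0 CPM, overlapping with the 118.4 to 148.5 CPM of TBK1-WT ∆control (adjusted p = 0.445) and above the 93.4 to 107.4 CPM of TBK1-cKD ∆control (adjusted p = 0.0068). These libraries are called by their label throughout. The 7 macrophage markers were present in all groups, with a summed level of 15640 to 30250 CPM per library. Summed levels of the 6 dendritic cell markers did not pass 2.8 CPM, and those of the 9 lymphocyte markers lay between 234.9 and 276.4 CPM in untreated libraries and between 47.1 and 79.0 CPM after R837. Summed levels of the 8 neutrophil markers lay between 5.28 and 8.75 CPM in untreated libraries of the TBK1-WT groups, between 1.26 and 1.96 CPM in those of both TBK1-cKD groups, between 21.4 and 43.8 CPM in 3 of the R837 groups, and between 122.9 and 215.6 CPM in the R837 libraries labelled TBK1-cKD ∆IKKe. The mean log2 CPM of 3 nuclear RNAs (Malat1, Neat1 and Xist) separated the libraries into 2 kinds: it was 8.95 to 9.46 in the 12 untreated libraries and 5.27 to 5.66 in 10 of the 12 R837 libraries. The other 2, TBK1-WT ∆control replicate 1 and replicate 3 of those labelled TBK1-cKD ∆IKKe, had 8.94 and 9.15. This level thus went with R837 in 10 of the 12 treated libraries. In those 10, its part in the R837 changes cannot be told apart from that of R837. In the same 2 libraries, in the same order, reads that fell in no counted gene made up 11.3% and 10.8%. They made up 8.41% to 8.93% in the other R837 libraries and 11.3% to 11.99% in untreated ones. Between these 2 libraries, Ikbke RNA was lower in the labelled one (log2 difference -0.63, with a single library on each side). Where a member's call changed without these 2 libraries, both results are given.

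Because the members are read here as interferon targets, the 250 bases upstream of their RefSeq start sites (build GRCm38.p6) were searched on both strands for the ISRE core (GAAA, any 2 bases, then GAAA) and for the interferon gamma-activated site TTCNNNGAA. The 10 members all had an entry. The ISRE core was found in 4 of them (Slfn5, Slfn8, Trim30a and Trim30d), or 40%, against 936 of 27025 genes (3.46%) searched in the same way. The second motif was found in Trim30c only, against 8.13% of all genes. The members were picked by name as interferon-induced genes, so these shares are not independent of that choice and carry no test. Slfn8 and Trim30a had 2 windows each, of which the first is shown. The second window of Slfn8 held the same match, and that of Trim30a held neither motif. Shown here are the windows of Trim30a and Trim30d, which carry the same motif at nearly the same distance, of Slfn8, which carries it on the same strand, and of Slfn1, the member that changed most and whose window holds neither motif. They are read 5′ to 3′ on the gene's strand and end 1 base before the start site, with the ISRE core, written as its reverse complement, in capitals.
Trim30a, chr7:104465194-104465443, minus strand: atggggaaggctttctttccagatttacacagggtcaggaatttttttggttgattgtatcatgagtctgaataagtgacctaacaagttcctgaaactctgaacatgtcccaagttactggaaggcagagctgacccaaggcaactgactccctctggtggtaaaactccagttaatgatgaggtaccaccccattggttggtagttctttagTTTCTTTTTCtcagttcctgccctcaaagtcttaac
Trim30d, chr7:104507850-104508099, minus strand: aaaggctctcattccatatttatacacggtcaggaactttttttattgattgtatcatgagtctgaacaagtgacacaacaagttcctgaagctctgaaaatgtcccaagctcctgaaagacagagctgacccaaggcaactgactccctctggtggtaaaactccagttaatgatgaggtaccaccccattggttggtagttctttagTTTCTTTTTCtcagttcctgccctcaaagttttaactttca
Slfn8, chr11:83020811-83021060, minus strand: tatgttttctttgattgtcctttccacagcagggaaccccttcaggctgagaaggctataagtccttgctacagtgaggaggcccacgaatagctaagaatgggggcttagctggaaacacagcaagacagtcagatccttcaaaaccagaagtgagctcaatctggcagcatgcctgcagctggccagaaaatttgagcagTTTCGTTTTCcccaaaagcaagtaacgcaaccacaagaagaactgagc
Slfn1, chr11:83116570-83116819, plus strand: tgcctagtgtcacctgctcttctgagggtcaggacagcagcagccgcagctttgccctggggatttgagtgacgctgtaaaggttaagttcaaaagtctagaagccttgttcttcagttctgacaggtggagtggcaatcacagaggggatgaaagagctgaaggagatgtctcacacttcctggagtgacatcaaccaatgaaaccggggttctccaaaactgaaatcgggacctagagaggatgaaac
The Trim30a and Trim30d windows shared a run of 118 identical bases, which includes the motif. The capitals lie 36 to 27 bases before the start in Trim30a, 41 to 32 in Trim30d and 48 to 39 in Slfn8. In Slfn5 the match GAAAAAGAAA lies 155 to 146 bases before the start. None of the 4 printed windows overlaps an annotated exon of its own gene. A match describes these letters only, and no binding was measured. The absence of a match in the other windows says nothing beyond these 250 bases.

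In the GENCODE annotation of GRCm38 the Schlafen members lie together on chromosome 11, Slfn5 at 82951349 to 82964840, Slfn8 at 83002158 to 83020810, Slfn2 at 83065112 to 83070678, Slfn1 at 83116849 to 83122670 and Slfn4 at 83175186 to 83190216. Trim25 lies on the same chromosome at 88999376 to 89020293. The 3 Trim30 genes are neighbours on chromosome 7, Trim30c at 104382065 to 104400837, Trim30a at 104409025 to 104465193 and Trim30d at 104470014 to 104507849, and Trim21 lies on that chromosome at 102557921 to 102565486. All 10 are annotated as protein coding. With reads of 50 bases, copies of a gene can share reads: of the 50-base words in the annotated transcripts, 14.6% were shared with another gene in Slfn8 (most with Slfn10-ps and Slfn9), 11.3% in Slfn4 (most with Slfn3), 11.1% in Slfn5, 7.5% in Trim30d and 6.0% in Trim30a, and 4.3% in Slfn2. The words shared by Slfn5 lie mostly in the antisense gene Slfn5os, which overlaps 559 of its exon bases. The library kit named in the labels does not mark the strand, so reads of that stretch cannot be told apart.

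Per kilobase of gene length, Slfn2 was the most abundant Schlafen member in untreated TBK1-WT ∆control macrophages and Trim25 the most abundant TRIM member. Slfn2 stood at 128.4 CPM per kb, 67.9% of the sum over the 5 Schlafen genes, followed by Slfn5 with 22.7% and Slfn8 with 8.85%. Slfn1 and Slfn4 together made up under 1% of that sum, at 0.38% and 0.20%. Trim25 made up 45.7% of the sum over the 5 TRIM genes, Trim30a 32.5%, Trim21 11.99%, Trim30d 8.48% and Trim30c 1.29%. After R837 the share of Slfn2 was 83.9% and that of Slfn5 10.1%. Among the TRIM genes Trim30a then led with 49.2% and Trim25 had 24.6%. These shares describe RNA levels per length on the CPM scale and carry no test.

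**Figure D1:**
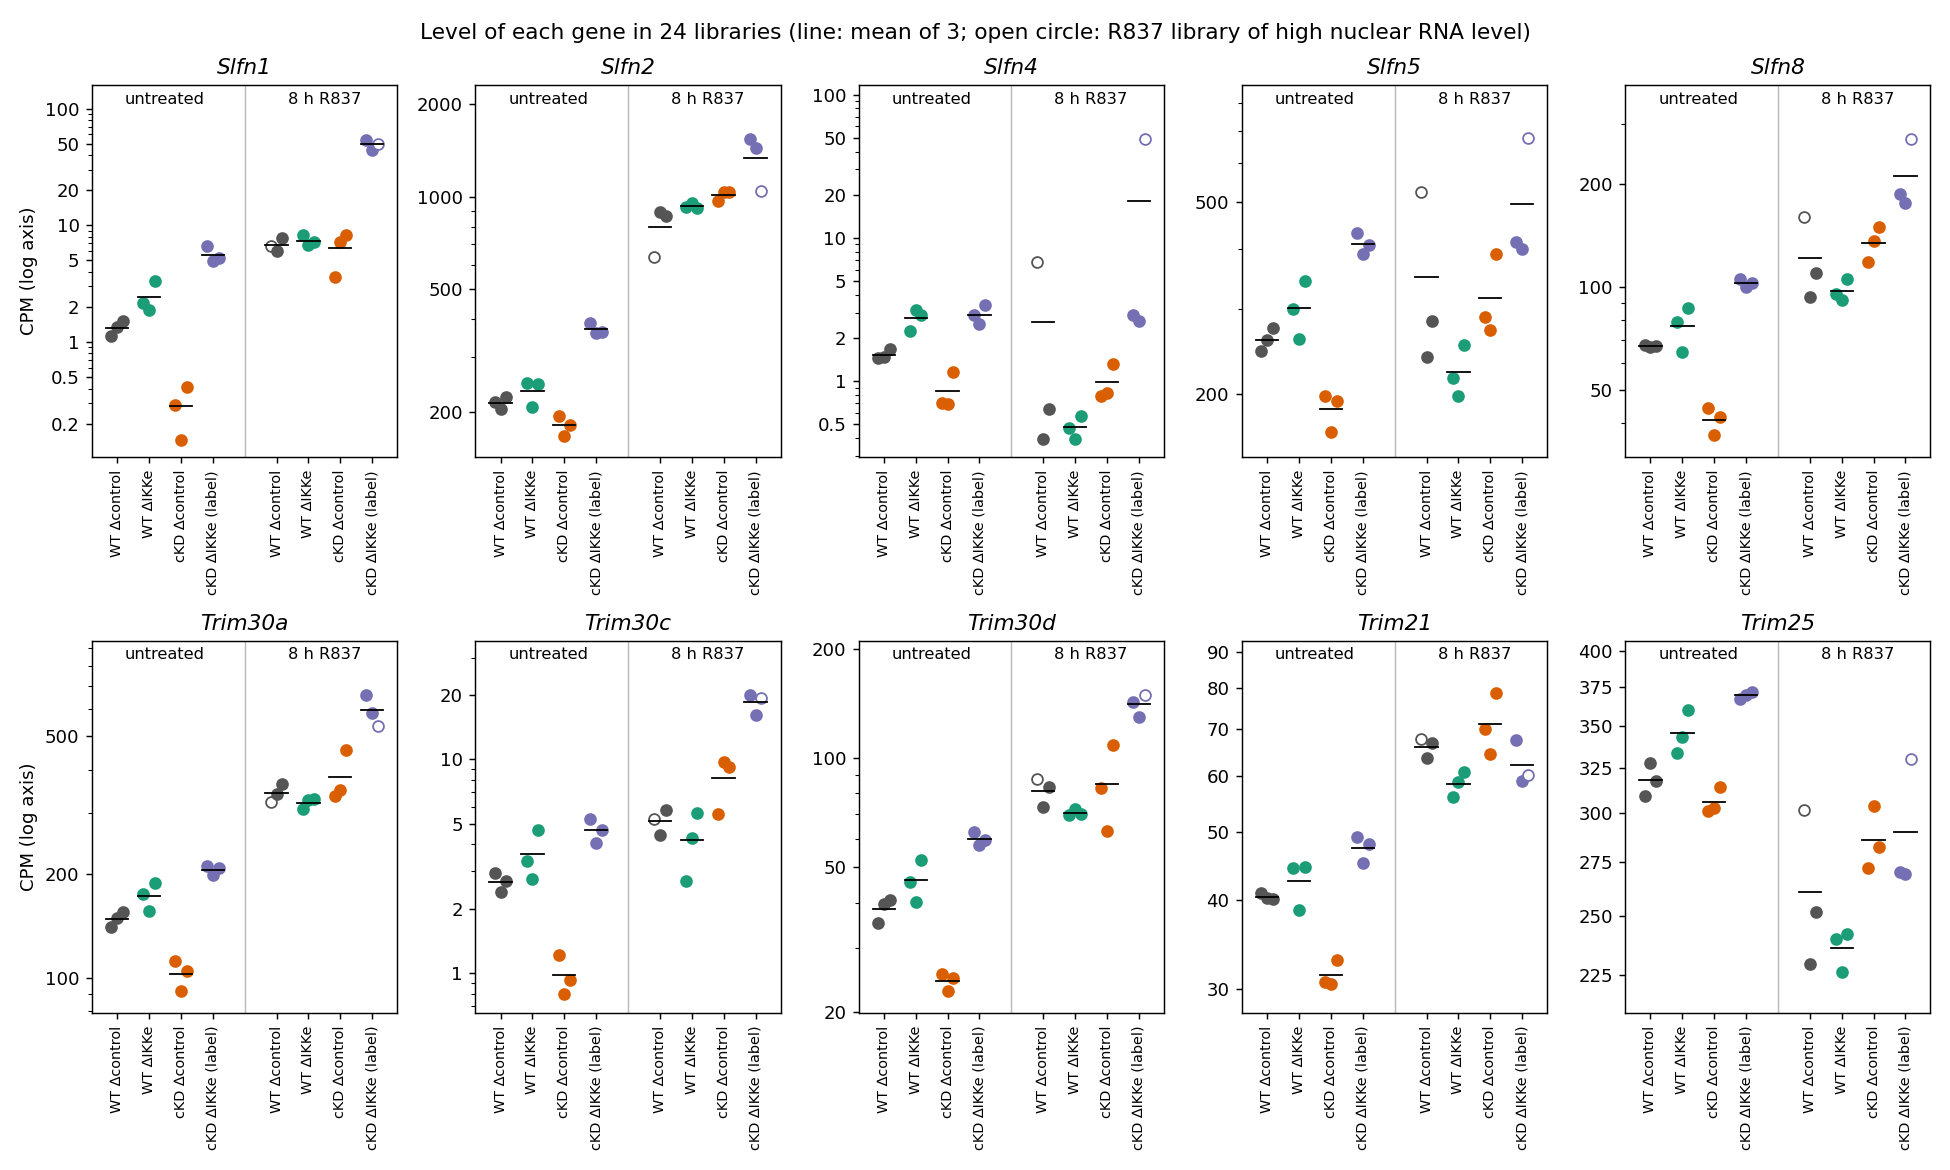
Level of the 10 genes in the 24 libraries, in CPM on a log axis, with 1 point per library and a line at the mean of the 3 libraries of a group; open circles are the 2 R837 libraries of high nuclear RNA level. In untreated cells the TBK1-cKD ∆control libraries are lowest for every gene except Trim25, whose groups overlap. The open circles stand apart from their groups for Slfn4, Slfn5, Slfn8, Trim25 and Slfn2.

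R837 raised most of the members in TBK1-WT ∆control macrophages. The RNA is of whole cultures, so fewer cells of a type and less RNA per cell cannot be told apart. By edgeR's quasi-likelihood test with Benjamini-Hochberg adjustment over all 14681 genes, 7 of the 10 rose (Slfn1, Slfn2, Slfn8, Trim30a, Trim30c, Trim30d and Trim21), against 30.6% of all genes tested, and Trim25 fell, against 32%. The median log2 change of the members was 0.90 and that of all genes -0.04. Slfn1, at 1.13, 1.35 and 1.52 CPM in the untreated libraries, reached 6.61, 5.98 and 7.80 CPM after R837. The groups did not overlap, and the change was 2.36 ± 0.26 on the log2 scale (± SE, adjusted p = 9.78e-08), a 5.14-fold rise. Slfn2 went from 214, 204 and 223 CPM to 639, 891 and 869 CPM, with the lowest of the 3 treated libraries being replicate 1. Its log2 change was 1.90 ± 0.12 (adjusted p = 2.13e-11), and 2.10 ± 0.06 without the 2 libraries of high nuclear RNA level. Slfn8, one of the long Schlafen proteins with a helicase-like region, went from 67.6, 66.6 and 67.3 CPM to 160, 93.8 and 110 CPM, a log2 change of 0.85 ± 0.16 (adjusted p = 0.000129), and of 0.65 ± 0.10 without the 2 libraries. Here replicate 1 was the highest library, so the same library was low for 1 gene of the family and high for another.

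The Trim30 genes rose by similar amounts in these cells. Trim30a, at 140, 149 and 156 CPM untreated, stood at 323, 340 and 363 CPM after R837, a 2.31-fold rise (log2 change 1.21 ± 0.10, adjusted p = 2.04e-09). Trim30d went from 35.3, 39.7 and 40.7 CPM to 87.8, 73.2 and 83.2 CPM, with a log2 change of 1.08 ± 0.13. Trim30c, the least abundant of the cluster, went from 2.94, 2.39 and 2.70 CPM to 5.26, 4.44 and 5.81 CPM, with a log2 change of 0.94 ± 0.24 (adjusted p = 0.0020). In all 3 the treated and untreated libraries were fully separated. Of the 10 members 8 were separated in this way, in either direction, as were 66.6% of all genes tested. Trim21 rose from 40.98, 40.4 and 40.1 CPM to 67.7, 63.6 and 66.9 CPM, with a log2 change of 0.71 ± 0.07 (adjusted p = 3.62e-08). The summed macrophage markers were also higher after R837 in these cells, at 24860 to 30250 CPM against 15640 to 16800 CPM, and so were the summed neutrophil markers, at 21.4 to 24.1 CPM against 6.13 to 8.75 CPM. Their part in the changes was not tested.

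Trim25 was the exception among the members. It was at 309, 328 and 317 CPM in the untreated libraries and at 302, 229 and 252 CPM after R837, so replicate 1 lay just under the untreated range and the other 2 well below it. The log2 change was -0.29 ± 0.08 (adjusted p = 0.00509). It was -0.35 ± 0.05 without the 2 libraries of high nuclear RNA level (adjusted p = 4.36e-07), and the call was lost when only these 6 libraries were fitted (-0.29 ± 0.11, adjusted p = 0.0542). Among libraries of high nuclear RNA level alone, with a single R837 library of this group, it was -0.07. With nuclear RNA level as a term, 0 members were called lower here and 9 higher (4418 and 4371 of 14681 genes were). The fall of Trim25 thus depended on how the nuclear RNA level was handled.

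Slfn4 and Slfn5 did not pass the test in TBK1-WT ∆control. Slfn4, known from myeloid cells, was at 1.45, 1.47 and 1.68 CPM untreated and at 6.78, 0.394 and 0.637 CPM after R837. Replicate 1 lay above the untreated range and the other 2 below it, with 277, 12 and 16 counted reads. The log2 change of 0.86 ± 0.91 (adjusted p = 0.42) turned into -1.53 ± 0.31 (adjusted p = 0.000147) without the 2 libraries of high nuclear RNA level. Slfn5 was at 245, 258 and 274 CPM untreated and at 524, 239 and 283 CPM after R837. Its log2 change of 0.43 ± 0.23 (adjusted p = 0.103) became 0.06 ± 0.13 without the 2 libraries. Among libraries of high nuclear RNA level alone, with a single R837 library of this group, the changes were 2.165 for Slfn4 and 1.02 for Slfn5. The direction for Slfn4 and the size for Slfn5 thus depended on the kind of R837 library used.

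**Figure D2:**
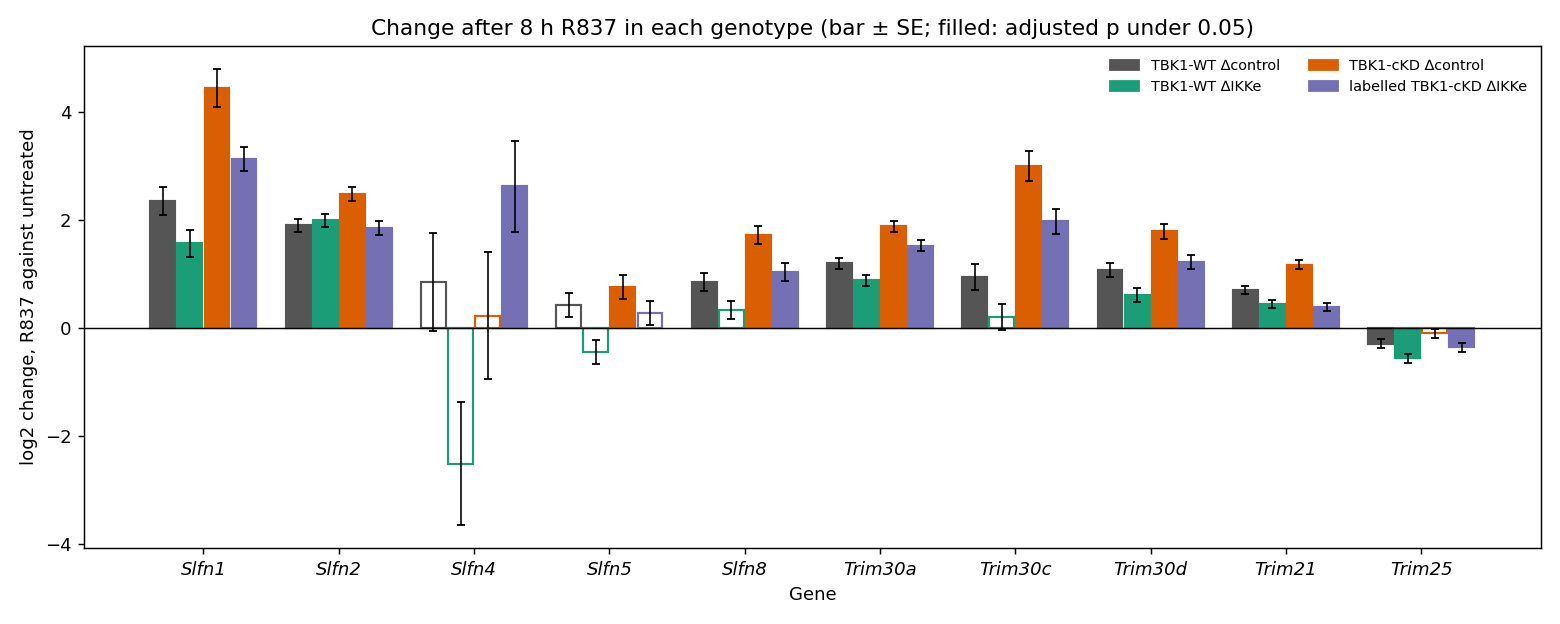
Log2 change of each gene after 8 h of R837 in the 4 genotypes, from the fit over all 24 libraries; bars show the estimate, whiskers its SE, and filled bars have an adjusted p under 0.05. The TBK1-cKD ∆control bar is the highest of the 4 for each gene but Slfn4, and Trim25 has no bar above 0.

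The 2 libraries that stand apart differed from the other 2 of their group in the same direction for the same genes. Slfn4 was 13.15 times the mean of its group mates in TBK1-WT ∆control replicate 1 (6.78 CPM against 0.394 and 0.637) and 17.6 times in replicate 3 of the libraries labelled TBK1-cKD ∆IKKe (48.5 CPM against 2.91 and 2.61). Slfn5 was 2.01 and 1.67 times, Slfn8 1.57 and 1.49 times, and Trim25 1.255 and 1.225 times the mean of the others. Slfn2 was lower there, at 0.726 and 0.701 times. The other 5 members lay between 0.862 and 1.12 times the mean of the others in both libraries. With 1 such library in each of 2 groups these ratios carry no test, and the part of the nuclear RNA level in them was not tested.

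**Figure D3:**
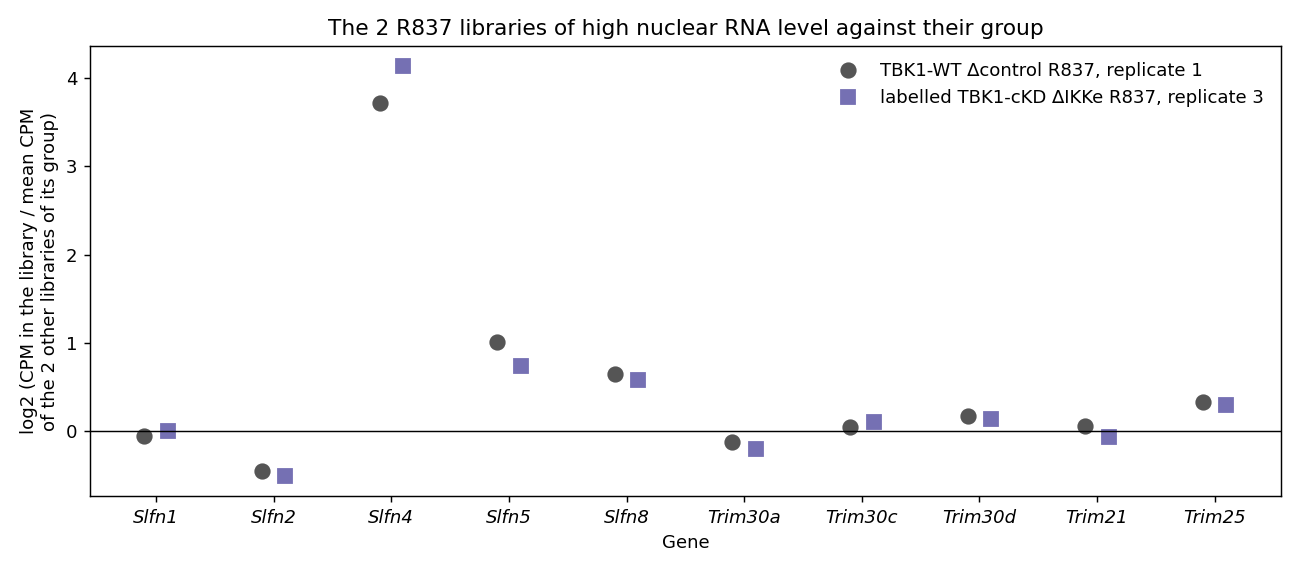
Log2 ratio of each gene's CPM in the R837 library of high nuclear RNA level to the mean of the 2 other libraries of its group, for TBK1-WT ∆control (circles) and the libraries labelled TBK1-cKD ∆IKKe (squares). Both libraries are over 3.7 for Slfn4 and below -0.4 for Slfn2, with Trim30c and Slfn1 near 0.

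In TBK1-WT ∆IKKe macrophages R837 raised 5 members (Slfn2, Slfn1, Trim30a, Trim30d and Trim21; 32.4% of all genes rose) and Trim25 fell (37.8% of all genes fell). Slfn1 went from 2.15, 1.87 and 3.34 CPM to 8.24, 6.76 and 7.18 CPM, a log2 change of 1.57 ± 0.25 (adjusted p = 1.03e-05). Slfn2 went from 247, 207 and 246 CPM to 926, 958 and 918 CPM, a change of 2.00 ± 0.12. Both genes were fully separated between treated and untreated cells. Trim25 went from 334, 343 and 360 CPM to 240, 226 and 242 CPM, a change of -0.55 ± 0.08 (adjusted p = 6.22e-06), with no overlap and no library of high nuclear RNA level among the treated. Slfn4 was at 2.24, 3.14 and 2.91 CPM untreated and at 0.468, 0.393 and 0.569 CPM after R837. The fit over all libraries gave -2.50 ± 1.15 (adjusted p = 0.0575), and without the 2 libraries that stand apart -2.45 ± 0.26 (adjusted p = 1.38e-08). Slfn8 (0.34 ± 0.16, adjusted p = 0.0682) and Slfn5 (-0.44 ± 0.23, adjusted p = 0.089) did not pass either. Without the 2 libraries, neither of which is of this genotype, 6 members were called higher (36.7% of all genes were), Slfn8 among them (0.39 ± 0.09, adjusted p = 0.00044), and 3 lower (38.8% of all genes were), with Slfn5 at -0.39 ± 0.12 (adjusted p = 0.00453). Of the 10 members 9, all but Trim30c, did not overlap between treated and untreated libraries, against 80.1% of all genes. With nuclear RNA level as a term, whose size is set by the 2 libraries that stand apart, the signs turned for Slfn4 (1.54 ± 0.35, adjusted p = 0.000668) and Slfn5 (0.43 ± 0.16, adjusted p = 0.0291).

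In TBK1-cKD ∆control macrophages 8 of the 10 members rose (31.6% of all genes did), and none fell (37.5% of all genes did). This was the genotype with the largest R837 changes for 8 of the members, all but Slfn4 and Trim25. Slfn1 was at 0.288, 0.145 and 0.408 CPM untreated, only 13, 4 and 11 counted reads, and at 3.58, 7.16 and 8.29 CPM after R837. The log2 change was 4.45 ± 0.35 (adjusted p = 4.91e-10), a 21.9-fold rise that rests on few reads in the untreated libraries. Trim30c went from 1.22, 0.800 and 0.928 CPM to 5.54, 9.77 and 9.16 CPM, a change of 3.00 ± 0.28 (adjusted p = 5.43e-09). Every treated library of both genes was above every untreated one. Slfn8 went from 44.1, 36.9 and 41.6 CPM to 118, 136 and 150 CPM (1.72 ± 0.17). Trim30a went from 112, 91.7 and 105 CPM to 336, 349 and 457 CPM (1.89 ± 0.11). Trim30d (1.80 ± 0.14), Slfn2 (2.49 ± 0.13), Trim21 (1.18 ± 0.07) and Slfn5 (0.76 ± 0.23, adjusted p = 0.00551) completed the 8. Trim25, at 301, 303 and 314 CPM untreated and at 272, 304 and 282 CPM after R837, overlapped between the groups (-0.10 ± 0.08, adjusted p = 0.308). With the nuclear RNA term its sign turned (0.21 ± 0.06, adjusted p = 0.00581).

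In the libraries labelled TBK1-cKD ∆IKKe 8 members rose after R837 (31.6% of all genes did) and Trim25 fell (34.8% of all genes did). Slfn1 went from 6.59, 4.91 and 5.29 CPM to 54.2, 44.4 and 49.35 CPM, the highest level of this gene in any group, with a log2 change of 3.13 ± 0.23 (adjusted p = 8.91e-11). Trim30c went from 5.26, 4.05 and 4.68 CPM to 20.02, 16.1 and 19.35 CPM (1.98 ± 0.23), also its highest level. Slfn2 went from 388, 361 and 363 CPM to 1543, 1438 and 1045 CPM (1.86 ± 0.12), with the library of high nuclear RNA level the lowest of the 3. The rise of Slfn4 rested on that library alone: the gene was at 2.87, 2.49 and 3.38 CPM untreated and at 2.91, 2.61 and 48.5 CPM after R837, and the log2 change of 2.63 ± 0.84 (adjusted p = 0.00935) became -0.02 ± 0.22 without the 2 libraries (adjusted p = 0.927). Trim30a (1.53 ± 0.10), Trim30d (1.23 ± 0.13), Slfn8 (1.04 ± 0.16) and Trim21 (0.39 ± 0.07) rose with no overlap. Trim25 changed by -0.35 ± 0.08 (adjusted p = 0.000888).

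Before any treatment, the TBK1-cKD ∆control macrophages held less RNA of most members than TBK1-WT ∆control. The test called 6 of 10 lower (2.65% of all genes were) and none higher (2.4% of all genes were), with a median log2 difference of -0.59 over the members and 0.00 over all genes. Slfn1 was furthest apart, at 0.288, 0.145 and 0.408 CPM against 1.13, 1.35 and 1.52 CPM (-2.21 ± 0.41, adjusted p = 0.00187). Trim30c was at 1.22, 0.800 and 0.928 CPM against 2.94, 2.39 and 2.70 CPM (-1.41 ± 0.29, adjusted p = 0.0040). Neither gene's groups overlapped. Slfn8 (-0.72 ± 0.17), Trim30d (-0.66 ± 0.14), Trim30a (-0.53 ± 0.10) and Trim21 (-0.37 ± 0.07) were also lower, each with every TBK1-cKD library under every TBK1-WT library, as for 17.3% of all genes. Slfn2, Slfn4 and Slfn5 did not overlap either, though their adjusted p were 0.36, 0.879 and 0.323. A fit without the 2 libraries that stand apart called these 3 lower as well (adjusted p of 0.00756, 0.0169 and 0.0073), which made 9 of 10 against 6.19% of all genes. Only Trim25 overlapped between the 2 genotypes (-0.06 ± 0.08, adjusted p = 0.916). In the same comparison 4 of the 6 neutrophil markers tested were lower, with a median log2 difference of -3.01 over the 6, and their summed level was 1.26 to 1.96 against 6.13 to 8.75 CPM. Of the 7 macrophage markers 2 were lower and 0 higher, though their summed level was 16870 to 18220 against 15640 to 16800 CPM. The part of these markers in the members' difference was not tested.

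The untreated libraries labelled TBK1-cKD ∆IKKe differed from TBK1-WT ∆control in the other direction. Of the 10 members 7 were called higher (8.52% of all genes were) and none lower (5.1% of all genes were), and in all 10 the 3 labelled libraries lay above the 3 TBK1-WT ∆control libraries, as for 25% of all genes. Slfn1 was at 6.59, 4.91 and 5.29 CPM (2.09 ± 0.26, adjusted p = 5.97e-06) and Slfn2 at 388, 361 and 363 CPM against 214, 204 and 223 CPM (0.79 ± 0.12, adjusted p = 6.63e-05). Trim30c (0.80 ± 0.24), Trim30d (0.64 ± 0.13), Slfn8 (0.61 ± 0.16), Trim30a (0.47 ± 0.10) and Trim21 (0.23 ± 0.07) made up the rest. The calls of Trim30c (adjusted p = 0.029) and Trim21 (adjusted p = 0.0385) were the least firm: each was called in 1 of the 6 fits that left out a single library of these groups, and their adjusted p reached 0.135 and 0.159. Without the 2 R837 libraries that stand apart, all 10 were called higher (14.2% of all genes were). Of the 7 macrophage markers 5 were higher and 0 lower in these libraries, with a summed level of 22390 to 23680 against 15640 to 16800 CPM, and 4 of the 6 neutrophil markers tested were lower. Their part in the rise of the members was not tested.

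Removal of IKKe alone, as labelled, left no member called in untreated cells: by edgeR 0 of 14681 genes passed (0% of all genes), and 422 genes and 2 members had an unadjusted p under 0.05. DESeq2, which gave Slfn4 no adjusted p in any comparison, called 1 gene and 0 members. The edgeR fit over all 24 libraries thus missed Ikbke itself, whose libraries did not overlap, so its lack of calls does not show a lack of differences. With only these 6 libraries fitted, edgeR called Ikbke lower (-0.76 ± 0.04, adjusted p = 4.52e-06) and 0 members. Slfn1 stood at 2.15, 1.87 and 3.34 CPM in TBK1-WT ∆IKKe against 1.13, 1.35 and 1.52 CPM (0.91 ± 0.28, adjusted p = 1), and its groups did not overlap. Nor did those of Slfn4, Trim30a and Trim25, so 4 of the 10 were separated without being called, and 16.2% of all genes were separated between these groups. The order of the untreated groups by group mean was the same for all 10 members, from TBK1-cKD ∆control through TBK1-WT ∆control and TBK1-WT ∆IKKe to the libraries labelled TBK1-cKD ∆IKKe. The test set TBK1-WT ∆control and TBK1-WT ∆IKKe apart for no member, and TBK1-cKD ∆control and TBK1-WT ∆control for all but Slfn2, Slfn4, Slfn5 and Trim25. The labelled libraries were not tested against TBK1-WT ∆IKKe in untreated cells. The means of Trim25, the narrowest of the members, were 306, 318, 346 and 370 CPM.

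**Figure D4:**
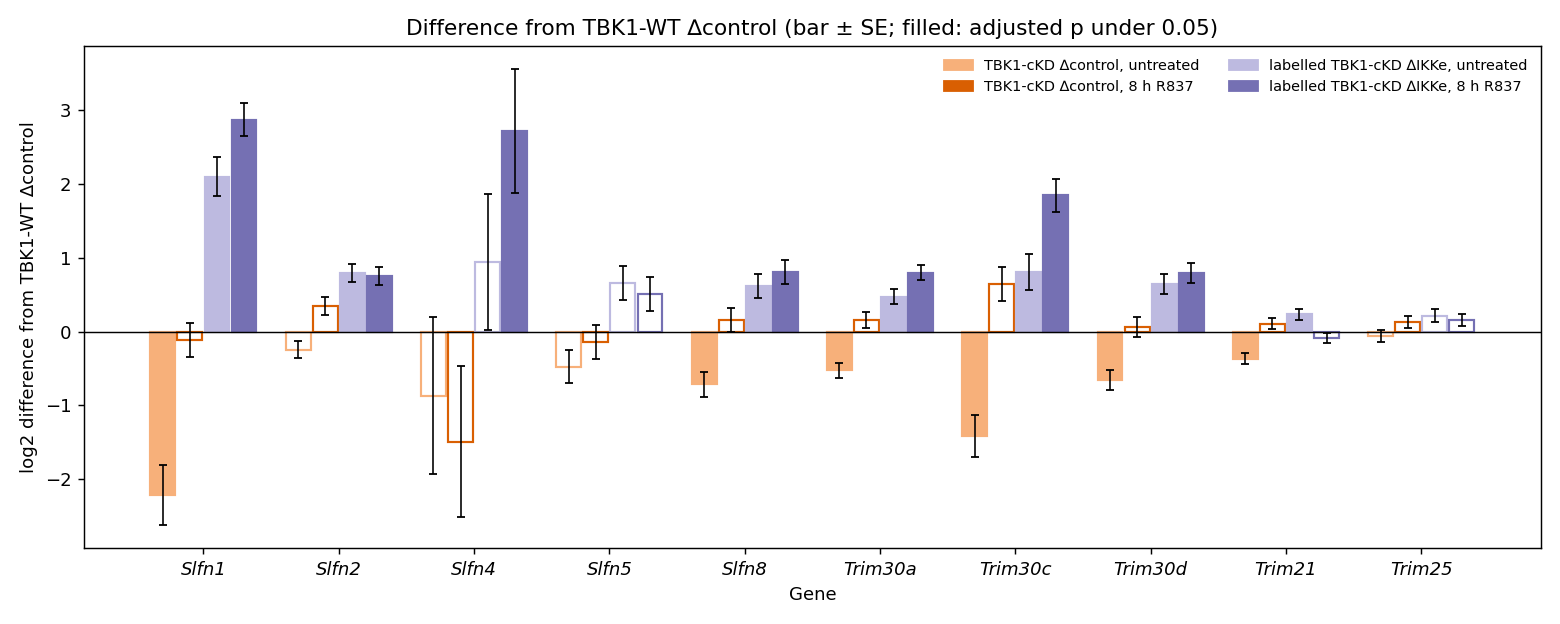
Log2 difference of each gene from TBK1-WT ∆control under the same treatment, for TBK1-cKD ∆control and the libraries labelled TBK1-cKD ∆IKKe; whiskers are SE and filled bars have an adjusted p under 0.05. Untreated TBK1-cKD ∆control bars lie below 0 for all 10 genes and the untreated labelled TBK1-cKD ∆IKKe bars above 0, while after R837 only the latter include filled bars.

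After R837 the same 2 genotypes were not set apart by the test. Of the 10 members 0 were called by edgeR between TBK1-cKD ∆control and TBK1-WT ∆control (8.89% of all genes were), with 2 members and 3891 genes at an unadjusted p under 0.05 and 0 members called by DESeq2. Slfn1 was at 3.58, 7.16 and 8.29 CPM against 6.61, 5.98 and 7.80 CPM (-0.12 ± 0.23, adjusted p = 0.765). Trim30a was at 336, 349 and 457 CPM against 323, 340 and 363 CPM (0.15 ± 0.10, adjusted p = 0.331). In both genes the groups overlapped. Without the 2 libraries that stand apart Slfn8 (0.40 ± 0.10, adjusted p = 0.0114) and Trim25 (0.24 ± 0.05, adjusted p = 0.00111) were called higher in TBK1-cKD ∆control (5.31% of all genes were). TBK1-WT ∆IKKe likewise had no member called after R837 (1.85% of all genes were), with 3 members and 2008 genes at an unadjusted p under 0.05 and 0 members called by DESeq2. Its largest difference was in Slfn4 (-2.52 ± 1.14, adjusted p = 0.342), which became -0.08 ± 0.39 without the 2 libraries.

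Among the R837 groups the libraries labelled TBK1-cKD ∆IKKe had the highest mean for 9 members, all but Trim21. They lay above every TBK1-WT ∆control library for 6 of the 10 (17.5% of all genes did), and overlapped with them for Slfn4, Slfn5, Trim21 and Trim25. Against TBK1-WT ∆control 7 were called higher (16.7% of all genes were) and none lower (15.5% of all genes were). Slfn1, at 54.2, 44.4 and 49.35 CPM against 6.61, 5.98 and 7.80 CPM, was 7.28-fold higher (2.86 ± 0.22, adjusted p = 1.87e-09). Trim30c was 3.58-fold higher (1.84 ± 0.23, adjusted p = 1.53e-06). Trim30a, at 660, 585 and 537 CPM against 323, 340 and 363 CPM, was 1.74-fold higher (0.80 ± 0.10). Slfn8 (0.80 ± 0.16), Trim30d (0.79 ± 0.13) and Slfn2 (0.75 ± 0.12) were also higher. When only these 6 libraries were fitted, 5 members were called higher (1364 of 13210 genes were). Slfn8 (0.78 ± 0.26, adjusted p = 0.0856) and Slfn4 (adjusted p = 0.288) lost their calls. Without the 2 libraries that stand apart 9 were called higher (20% of all genes were), with Slfn5 (0.65 ± 0.14, adjusted p = 0.000809) and Trim25 (0.18 ± 0.05, adjusted p = 0.0072) added. The call of Slfn4 (2.71 ± 0.84, adjusted p = 0.0163) depended on which high-level libraries were kept, and held in 3 of the 6 fits that left out a single library. Leaving out replicate 3 of the labelled libraries alone gave -0.005. Leaving out the high-level library of each group gave 2.45 ± 0.32 (adjusted p = 1.46e-06), and the high-level libraries alone gave 2.85. Trim21, at 67.5, 59.1 and 60.2 CPM against 67.7, 63.6 and 66.9 CPM, did not differ beyond its spread (-0.09 ± 0.07, adjusted p = 0.422). The summed neutrophil markers were also highest in these libraries, at 122.9 to 215.6 CPM against 21.4 to 24.1 CPM in TBK1-WT ∆control. Most of that sum was S100a8, whose mean was 155.3 against 17.4 CPM. Of the 6 neutrophil markers tested 2 were higher and 4 lower, and Ly6g and Elane were at 0 counts in both groups.

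Set against the 2 groups that carry 1 alteration each, the R837 libraries labelled TBK1-cKD ∆IKKe gave the same picture for most members. Against TBK1-cKD ∆control 8 were higher (18.3% of all genes were), among them Slfn1 at 2.98 ± 0.23. Trim21 was lower (-0.19 ± 0.07, adjusted p = 0.0474), as were 16.2% of all genes. Its call was lost without the 2 libraries that stand apart (adjusted p = 0.132). The calls of Slfn2 (0.40 ± 0.12), Slfn4 (4.20 ± 0.98), Slfn5 (0.65 ± 0.23) and Slfn8 (0.65 ± 0.16) were lost when only these 6 libraries were fitted (adjusted p of 0.121, 0.063, 0.112 and 0.0529). Slfn4 also lost its call without replicate 3 of the labelled libraries (1.48, adjusted p = 0.128). Against TBK1-WT ∆IKKe 9 were higher (16.5% of all genes were), all but Trim21, and Trim25 (0.30 ± 0.08, adjusted p = 0.00894) lost its call when only these 6 libraries were fitted (adjusted p = 0.0696). These comparisons share the same 3 labelled libraries, so they are not independent of each other.

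The size of the R837 response itself was compared between genotypes with an interaction term. In TBK1-cKD ∆control it was larger than in TBK1-WT ∆control for 4 members (0.674% of all genes had a larger response and 0.204% a smaller one): Slfn1 by 2.09 ± 0.48 on the log2 scale (adjusted p = 0.0413), Trim30c by 2.05 ± 0.37 (adjusted p = 0.00887), Trim30a by 0.68 ± 0.15 (adjusted p = 0.0277) and Trim21 by 0.47 ± 0.10 (adjusted p = 0.0323). Of these, Trim30c was called in each of the 12 fits that left out 1 library, Trim30a in 5, Trim21 in 3 and Slfn1 in 2. Since this contrast contains the untreated groups, it also carries the lower starting level described above. Without the 2 libraries that stand apart all 10 members had a larger response (1.58% of all genes did), with a median difference of 0.76, among them Slfn8 (1.11 ± 0.14, adjusted p = 0.000165), Slfn4 (1.82 ± 0.42, adjusted p = 0.0191) and Trim25 (0.30 ± 0.06, adjusted p = 0.00866). Fitted on the 12 libraries of these groups alone, Trim30c was the only member to pass (adjusted p = 0.0474), and 29 of 14160 genes did.

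**Figure D5:**
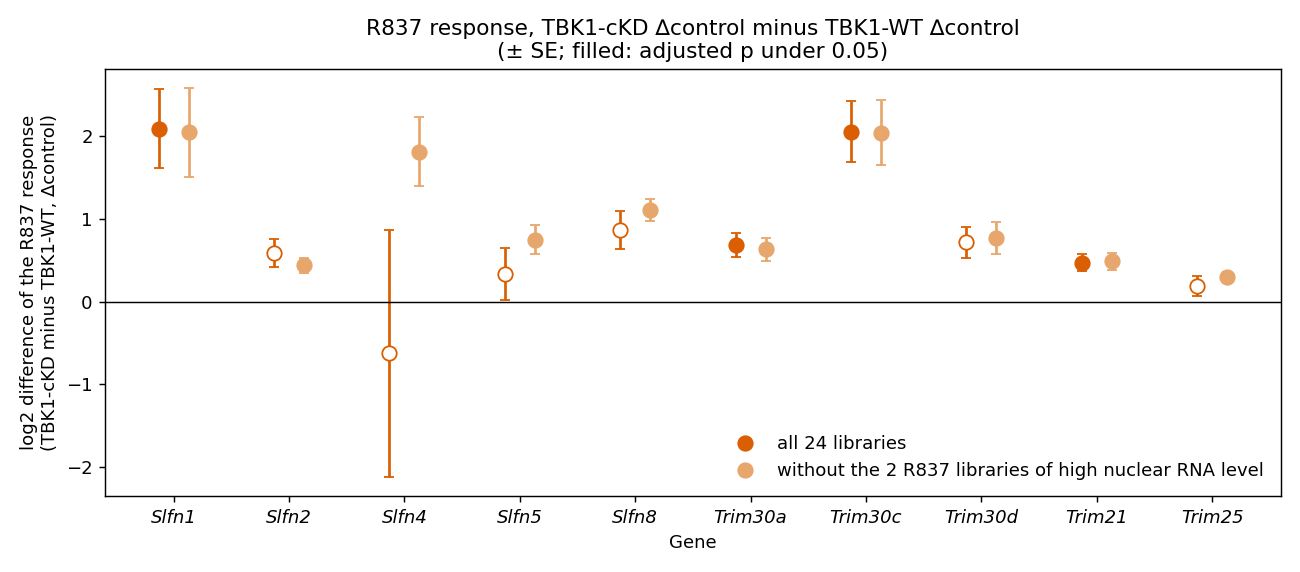
Difference of the R837 response, TBK1-cKD ∆control minus TBK1-WT ∆control, on the log2 scale with its SE, over all 24 libraries (dark) and without the 2 R837 libraries of high nuclear RNA level (light); filled points have an adjusted p under 0.05. With all libraries 4 points are filled, and without the 2 libraries all 10 are, with Slfn4 moving from -0.63 to 1.82.

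In the libraries labelled TBK1-cKD ∆IKKe the response of Trim30c was larger than in TBK1-WT ∆control by 1.04 ± 0.33 (adjusted p = 0.0344; 7.38% of all genes had a larger response), and that of Trim21 was smaller by 0.32 ± 0.10 (adjusted p = 0.0375; 9.96% of all genes had a smaller one). Without the 2 libraries that stand apart Trim30c kept its call (1.03 ± 0.35, adjusted p = 0.0361) and Trim21 lost it (-0.27 ± 0.11, adjusted p = 0.0838), while Slfn4 gained one for a larger response (adjusted p = 0.00548). Of the 12 fits that left out 1 library, 6 called Trim30c and 3 called Trim21, and their highest adjusted p were 0.0931 and 0.0939. The response in TBK1-WT ∆IKKe differed from that in TBK1-WT ∆control for no member by edgeR (0.245% of all genes), though 9 members and 1008 genes had an unadjusted p under 0.05. DESeq2 called 0 members and 99 genes. The 9 included Slfn5 (-0.87 ± 0.32, adjusted p = 0.527) and Slfn1 (-0.79 ± 0.36, adjusted p = 0.711).

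The members' profiles over the 8 group means were alike for most pairs. Pearson's r of the mean log2 CPM was highest for Slfn8 and Trim30d (0.990) and for Trim30a and Trim30d (0.987), and its median over the 45 pairs was 0.814. Trim25 stood apart, with r of -0.646 to Slfn2, -0.545 to Trim21 and -0.511 to Trim30a. Among genes outside the set, those most like Trim30a were Isg15 (0.998), a ubiquitin-like modifier induced by interferon, Ifi204 (0.998) and Ifi211 (0.997). Slfn8 and Trim30d were both most like Adar (0.993 and 0.997), the RNA-editing enzyme. Slfn1 was closest to Phf11a (0.994), Slfn2 to Tfec (0.997), Trim30c to Ifi203 (0.995), Trim21 to Gm12250 (0.992), Slfn4 to Epsti1 (0.984), Trim25 to Tmem140 (0.981) and Slfn5 to Gm4070 (0.973). These coefficients describe 8 points that share libraries and R837 treatment, and carry no test.

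The rest of the interferon pathway gives the setting for these values. Of 20 other interferon-stimulated genes, 19 rose with R837 in TBK1-WT ∆control (30.6% of all genes did). The median log2 change of the 20 was 1.73, against -0.04 for all genes. In untreated TBK1-cKD ∆control 16 of the 20 were lower (2.65% of all genes were), led by the chemokine gene Cxcl10 (-1.60 ± 0.34) and by Ifi44 (-1.56 ± 0.20). In the untreated libraries labelled TBK1-cKD ∆IKKe 18 were higher (8.52% of all genes were). After R837 17 were higher in the labelled libraries than in TBK1-WT ∆control (16.7% of all genes were). Among them were Ifi44 at 2.20 ± 0.19 and Mx1, an antiviral GTPase, at 1.73 ± 0.22. In TBK1-cKD ∆control after R837, 3 were higher and 1 lower (8.89% of all genes were called). The response difference of TBK1-cKD ∆control was called for 11 of the 20, all larger (0.674% of all genes), with Cxcl10 at 2.75 ± 0.42. That of the labelled libraries was larger for 1 and smaller for 1 (7.38% and 9.96% of all genes). Of 15 listed genes for interferon receptors, their kinases and transcription factors, 2 were lower and 0 higher in untreated TBK1-cKD ∆control (median log2 difference -0.05). In the untreated labelled libraries 10 of the 15 were higher and 0 lower (median 0.29). Irf7, the factor that amplifies interferon production, was at -1.27 ± 0.19 in untreated TBK1-cKD ∆control (adjusted p = 0.000207). It was at 1.41 ± 0.19 in the untreated labelled libraries (adjusted p = 1.15e-05).

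Relatives outside the set did not all move with it. The 3 other Schlafen genes that were tested, of 5 listed, all fell with R837 in TBK1-WT ∆control. Slfn9 fell by 2.34 ± 0.33 on the log2 scale (adjusted p = 3.2e-06), from a mean of 75.9 to 14.8 CPM, and the pseudogene Slfn10-ps fell by 1.14 ± 0.37. Both share words of sequence with Slfn8, which rose. Of 31 other TRIM genes tested, 8 rose and 11 fell in those cells, with Trim16 (-1.87 ± 0.11) and Trim2 (-1.66 ± 0.12) the furthest. Among 6 other genes of the Trim30 cluster that were tested, Trim30b rose in the libraries labelled TBK1-cKD ∆IKKe by 2.87 ± 0.23 (adjusted p = 6.52e-10), from a mean of 2.76 to 20.2 CPM, and its R837 level in TBK1-WT ∆control was 3.03 CPM. Of 12 genes for partners of the TRIM proteins, 6 rose and 2 fell with R837 in TBK1-WT ∆control. Ddx58, which encodes RIG-I, the partner of Trim25, rose by 1.17 ± 0.12 there (adjusted p = 4.6e-08). Trim25 was called lower there in the fit over all 24 libraries.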

How the data were processed

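RNA was sequenced as single 50-base reads, per the labels' protocols. Reads were aligned with GSNAP to GRCm38, per the submitters' processing notes. Each deposited file gives counts per gene, RPKM values and gene widths, per the file headers. The authors' deposited counts were used as they stand for all tests. The deposited RPKM values were not used in a test, and the deposited widths served only to give levels per kilobase. Columns of other samples numbered 0. Rows without a gene symbol (233 of 52636) held 0.0187% of the counts.

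Counts were fitted with edgeR 4.0.16 in R 4.3.3 over all 24 libraries with 8 group means, TMM factors and the quasi-likelihood test, after filterByExpr with a minimum count of 10 and a minimum total of 15. P-values were adjusted by Benjamini-Hochberg over 14681 genes, with a threshold of 0.05. The standard error is the log2 change divided by the square root of F. CPM values are scaled by the TMM factors, and an offset of 0.5 CPM was used for log2 levels. The common biological coefficient of variation was 0.116. The fit was tested on simulated data with 200 changed genes. Sequences are from RefSeq, build GRCm38.p6.

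Alternatives were DESeq2 1.42.0, RLE factors, no filter, only the groups compared, each library left out in turn, a term for nuclear RNA level (divided at 7 log2 CPM) and high-level libraries alone. The fit without the 2 high-level R837 libraries was chosen after seeing the data. The members and lists were chosen with earlier results of these data known. Beyond the members, Tbk1 and Ikbke, the text names genes with the largest called changes in each list and the genes most correlated with each member. S100a8, Ly6g and Elane were named after their values were seen. The labels name 3 mice as replicates and tie no library to a mouse, so p-values measure the spread between these cultures.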

Additional observations from a re-analysis of the deposited data

Results flagged for a closer look

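The R837 response of 4 genes was larger in TBK1-cKD ∆control than in TBK1-WT ∆control by an interaction term: Slfn1 by 2.093 on the log2 scale, Trim30c by 2.054, Trim30a by 0.6815 and Trim21 by 0.4742. The same term set the labelled TBK1-cKD ∆IKKe group apart from TBK1-WT ∆control for 2 genes, Trim30c by 1.036 and Trim21 by -0.3174. No group held enough libraries to test for a sample far from the others.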

How the results depend on the processing

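No paired analysis was possible because the labels carry no replicate numbers that are shared between groups. Apart from leaving out single libraries, counts of members called moved by over 1.5 times, or from 0, for 4 comparisons. TBK1-cKD ∆control against TBK1-WT ∆control after R837 went from 0 to 1 with no filter, 4 with a nuclear RNA term and 2 without the 2 high-level R837 libraries. Calls over all genes in these fits, in that order, were 1305 of 14681, 1255 of 27584, 1838 of 14681 and 1535 of 14832. The libraries labelled TBK1-cKD ∆IKKe against TBK1-cKD ∆control after R837 went from 9 to 4 with only those groups fitted. Over all genes the calls went from 5067 of 14681 to 1864 of 13087. The response difference of TBK1-cKD ∆control went from 4 to 10 with the term, 1 with only those groups and 10 without the 2 libraries. Its calls over all genes went from 129 of 14681 to 442 of 14681, 29 of 14160 and 382 of 14832. The response difference of the labelled TBK1-cKD ∆IKKe libraries went from 2 to 1 with RLE factors and to 1 with no filter. There the calls over all genes went from 2546 of 14681 to 2515 of 14681 and 1995 of 27584. Leaving out single libraries gave 0 to 1 for both TBK1-WT ∆IKKe and TBK1-cKD ∆control after R837, and 1 to 4 and 0 to 2 for these response differences. Over all genes these fits gave, in that order, 125 to 356, 774 to 1729, 47 to 142 and 2086 to 3108 calls. Within that limit, counts reached 9 from 6 for the R837 response in TBK1-WT ∆IKKe and for untreated TBK1-cKD ∆control, 10 from 7 for the untreated labelled libraries, and 5 to 9 from 7 for the labelled libraries against TBK1-WT ∆control after R837. For the first of these, the fits that called 9 members called 7965 to 11198 genes, against 10300 in the main fit. For the last, the fits that called 5 and 9 members called 2610 and 5318 to 6573 genes, against 4725. Calls over all genes for both untreated comparisons are given below. The causes were not tested.

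With a term for nuclear RNA added to the fit, the log2 change turned over for Slfn4 and Slfn5 in the R837 response of TBK1-WT ∆IKKe (1.54 and 0.43) and for Trim25 in that of TBK1-cKD ∆control (0.21). After R837 it did so for Slfn4 in TBK1-WT ∆IKKe (0.15), for Slfn4 and Slfn5 in TBK1-cKD ∆control (1.18 and 0.23) and for Trim25 between the labelled libraries and TBK1-cKD ∆control (-0.090). The response differences of Slfn2 in TBK1-WT ∆IKKe (-0.053) and Slfn4 in TBK1-cKD ∆control (2.05) turned as well. Without the 2 high-level libraries the same 3 comparisons after R837 of TBK1-cKD ∆control and the labelled libraries gave 0.95, 0.27 and -0.063, these 2 response differences -0.046 and 1.82, and the R837 response of Slfn4 -1.53 in TBK1-WT ∆control and -0.024 in the labelled libraries. With single libraries left out, R837 responses that changed sign ran from -1.53 to 1.36 (Slfn4, TBK1-WT ∆control), -0.058 to 0.45 (Trim30c, TBK1-WT ∆IKKe), -0.046 to 0.49 (Slfn4, TBK1-cKD ∆control), and -0.085 to 3.14 and -0.012 to 0.41 (Slfn4 and Slfn5, labelled libraries). After R837, TBK1-cKD ∆control ran from -0.39 to 0.19 for Slfn1, -1.99 to 0.95 for Slfn4, -0.35 to 0.27 for Slfn5, -0.0030 to 0.40 for Slfn8 and -0.16 to 0.23 for Trim30d. The labelled libraries ran from -0.0050 to 5.13 for Slfn4 against TBK1-WT ∆control and -0.086 to 0.068 for Trim25 against TBK1-cKD ∆control. Response differences ran from -0.045 to 0.18 (Slfn2, TBK1-WT ∆IKKe), -1.12 to 1.82 (Slfn4, TBK1-cKD ∆control), and, in the labelled libraries, -0.19 to 0.10, -0.94 to 4.18, -0.44 to 0.26, -0.033 to 0.43 and -0.17 to 0.045 for Slfn2, Slfn4, Slfn5, Slfn8 and Trim25. Apart from leaving out a library, a called result kept its call in 461 pairings with an alternative, lost it in 23 and turned sign in 1. With single libraries left out these numbers were 419, 65 and 2. DESeq2 gave no adjusted p for Slfn4 in any of the 15 comparisons, so its counts of members called leave Slfn4 out. Over all genes, calls between untreated TBK1-cKD ∆control and TBK1-WT ∆control went from 742 to 1914 without the 2 libraries, 2042 with the term, 2808 with only those groups and 2996 with high-level libraries alone. Those of the untreated labelled libraries went from 2000 to 3607, 3752, 5391 and 4910. Untreated TBK1-WT ∆IKKe had 0 with RLE factors, 1 to 10 with the other alternatives and 0 to 5 with single libraries left out. After R837 and with only the groups compared, calls went from 272 to 19 in TBK1-WT ∆IKKe, from 1305 to 40 in TBK1-cKD ∆control, and for the labelled libraries from 4725 to 2610 against TBK1-WT ∆control and from 5067 to 1864 against TBK1-cKD ∆control. TBK1-WT ∆IKKe after R837 had 461 by DESeq2 and 519 with the term. Response differences went from 36 to between 23 and 146 in TBK1-WT ∆IKKe, from 129 to between 29 and 442 in TBK1-cKD ∆control, and from 2546 to 4420 with the term in the labelled libraries. Depth limits Slfn1 and Slfn4 most, since groups of low level held as few as 4 and 10 reads per library.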
